A study of Mus musculus with 10 samples.

Results

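The clustered protocadherins are 58 genes that lie side by side on mouse chromosome 18, and they were taken here as every measured CpG cytosine between mm10 positions 36930000 and 37845000. This interval held 1458 of the 1348062 CpGs used, and 44205 of those lay on chromosome 18. Of the genes, 12 are alternate isoforms of the alpha cluster and 2 are its C-type isoforms, 22 form the beta cluster, 12 are gamma A, 7 are gamma B and 3 are gamma C-type isoforms. DNA methylation had been measured by RRBS, a bisulfite method that reads fragments cut at CCGG sites, in prospermatogonia, the male germ cells of the fetal testis. The 5 control pools came from F1 fetuses of C3H/HeN dams drinking tap water, and the 5 arsenic pools from fetuses of dams of that strain whose tap water held sodium arsenite during gestation. Each pool combined the testes of many embryos of several dams, and germ cells were enriched with an antibody against Thy1.2 (CD90.2). The table holds methylation only, so the labelled cell type could not be checked here against expressed markers. The study itself compared marker genes between its cell fractions by real-time PCR.

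Protocadherins of these clusters are cell surface adhesion proteins, best known from neurons, where each cell uses a few isoforms and thereby carries its own surface identity. In the alpha and gamma clusters every isoform has its own promoter and its own large variable exon, which encodes the extracellular cadherin repeats, the membrane span and part of the tail, and this exon is spliced to constant exons shared by the whole cluster. Beta genes have no shared constant exons. Alternate promoters are chosen at random per cell and their use is tied to CTCF binding and to promoter methylation, while C-type isoforms are expressed more uniformly. Male germ cells lose most DNA methylation early in fetal life and regain it from the late fetal testis into early postnatal life.

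Total coverage summed over CpGs was 44207245 to 60504881 in the control pools and 56551174 to 66570870 in the arsenic pools. Within the interval, the median coverage of a CpG was 27 to 45 by pool. A level of 3 methylated in 10 reads has a 95% Wilson interval of 10.8 to 60.3%, and 12 in 36 reads one of 20.2 to 49.7%, both for counting error only. Over the whole table arsenic 1 was lowest at 42.1% and arsenic 5 highest at 47.3%, and the other pools had 45.2 to 46.7%. The constant exons, the shared tail of the alpha proteins, held 4 CpGs, at 70.7% ± 8.07 in control and 67.3% ± 4.25 in arsenic pools (SD, n = 5 each).

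Most protocadherin variable exons were partly methylated in these cells, 3 of the 5 C-type exons were near 0, and none of the 41 exons and 9 promoters with at least 3 CpGs passed limma's test between control and arsenic pools. The mean level of the interval was 32.3% ± 0.422 in control pools (SD, n = 5), against 45.9% ± 0.581 over all CpGs of the table, and it was below the table mean in every pool. Of the interval's CpGs, 40.0% had a mean level below 20%, 56.7% lay between 20 and 80% and 3.36% above 80%. Over the table these shares were 36.9%, 38.4% and 24.7%. The interval therefore held few highly methylated CpGs and many at intermediate levels. Variable exons outside the promoter window carried 1083 of the members, with a mean of 28.9% ± 0.506 in control pools. The promoter window (1 kb upstream to 100 b downstream of the transcript start) carried 102, at 12.4% ± 1.21. Of the 102, 18 in alternate or beta genes and 12 in C-type genes lay upstream of the start. The others lay in the first 100 b of variable exons. The 269 CpGs of the interval between the exons had 52.9% ± 0.918.

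Coverage of the genes was uneven. A variable exon with at least 3 measured CpGs was present for 41 of the 58 genes and such a promoter for 9, while 15 exons and 42 promoters had no CpG. The exons without any CpG were Pcdha6, Pcdha7, Pcdha9, Pcdha10, 10 of the beta genes and Pcdhgb5. They had a median of 4 CCGG sites, against 7 in the exons with at least 3 CpGs. After conversion in silico, a median of 16.7% of their 50-base words occurred more than once in the interval and its flanks, against 6.23%. The rest of the genome was not searched. Over all 58 genes, 10.2% of the exons' CpG cytosines and 5.84% of the promoters' were in the table. Values below thus describe the CpGs that were read and not whole exons.

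In all, 35 of the 41 exons had a mean level over the 10 pools between 20 and 80%, and 6 lay below 20%. Among all 6654 start-codon exons of protein-coding genes measured in the same way, 16.6% lay between 20 and 80%, and the median was 1.27%, against 34.1% for the protocadherins. The families differed in level. In control pools the CpGs of beta exons averaged 48.8% ± 1.19, those of gamma B exons 35.4% ± 2.64, of alpha alternate exons 31.3% ± 2.10 and of gamma A exons 29.9% ± 1.03 (SD, n = 5 each). Over the CpGs read, beta exons were above each other family in all 10 pools, while the ranges of alpha alternate and gamma A exons overlapped. C-type exons averaged 8.79% ± 0.471, below the alternate exons of alpha and gamma (31.2% ± 0.657) in every pool.

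**Figure D1:**
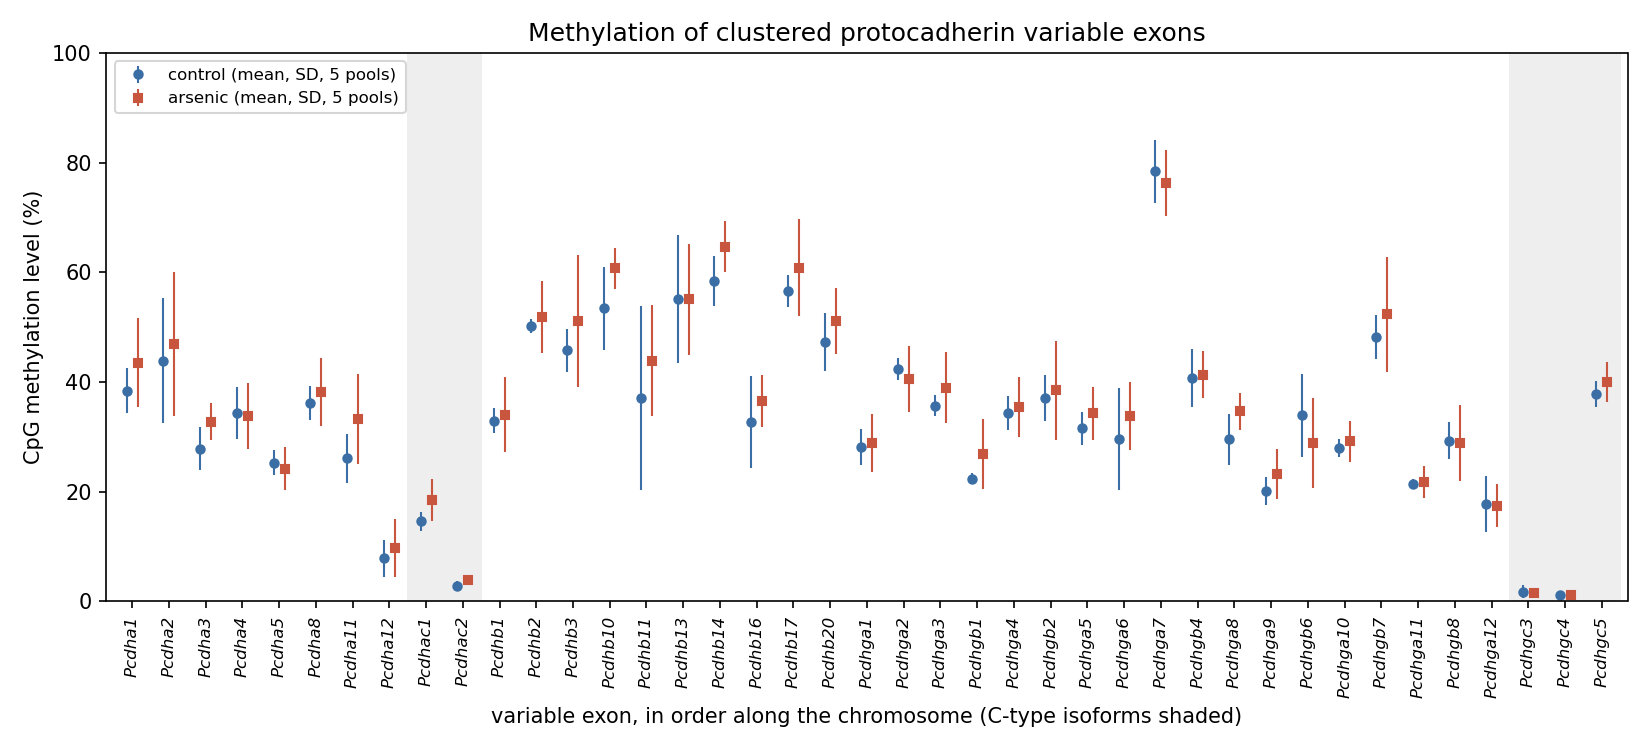
Methylation level in percent (vertical axis) of the 41 variable exons with at least 3 CpGs, in order along the chromosome; points are group means and bars SD over 5 pools, with C-type isoforms shaded. Pcdha12, Pcdhac1, Pcdhac2, Pcdhga12, Pcdhgc3 and Pcdhgc4 lie below 20%, Pcdhga7 is highest, and the error bars of the groups overlap at most exons.

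The C-type isoforms close the alpha and gamma clusters. Pcdhac2, Pcdhgc3 and Pcdhgc4 had the lowest exons of all, Pcdhac1 lay above the alternate exon Pcdha12 but below 20%, and Pcdhgc5 stood apart. The exon of Pcdhac1 (37090013 to 37092571, 60 CpGs) had 16.6, 12.0, 15.1, 15.6 and 13.7% in control pools 1 to 5 and 13.5, 16.3, 17.9, 21.5 and 22.9% in arsenic pools 1 to 5. The exon of Pcdhac2 (37143503 to 37146530, 60 CpGs) had 2.40, 1.94, 2.95, 4.09 and 2.77% in control and 3.67, 3.59, 2.96, 4.30 and 4.68% in arsenic pools. Arsenic pools 4 and 5 lay above every control at both exons, and at each exon the remaining arsenic pools lay within or just above the control range. For Pcdhac2 this was the smallest p of any protocadherin exon (limma, adjusted p = 0.903). The exon of Pcdhgc3 (37806410 to 37808977, 103 CpGs) had 1.11, 3.78, 1.46, 1.29 and 1.09% in control and 1.62, 1.18, 1.51, 1.63 and 1.30% in arsenic pools, and that of Pcdhgc4 (37815079 to 37817983, 25 CpGs) ranged from 0.758 to 1.71% over all pools. Levels this low could not be told apart from incomplete bisulfite conversion.

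Pcdhgc5 is the last variable exon before the gamma constant exons. Its exon (37819513 to 37822134, 32 CpGs) had 37.3, 34.4, 38.5, 41.3 and 37.5% in control pools and 37.6, 35.1, 40.3, 42.9 and 43.8% in arsenic pools (37.8% ± 2.46 and 39.9% ± 3.65). It was above the other 4 C-type exons in all pools and in the range of the alternate isoforms. Arsenic 4 and 5 were again the highest, and arsenic 1 to 3 lay inside the control range.

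Among the alpha alternate exons, Pcdha2 and Pcdha1, at the start of the cluster, were highest and Pcdha12, at its end, was lowest. Pcdha1 (36930285 to 36932672, 34 CpGs) had 36.7, 45.6, 36.7, 37.6 and 35.6% in control and 40.1, 34.7, 38.5, 51.6 and 52.5% in arsenic pools. Pcdha2 varied widely on 8 CpGs, from 26.9 to 55.7% in control and from 28.1 to 62.9% in arsenic pools. Pcdha12 (37020149 to 37022623, 10 CpGs) had 5.07 to 13.7% in control pools and 1.15 to 15.3% in arsenic pools. Over the 8 alpha alternate exons with data the level fell with position along the cluster (Pearson r = -0.69, Spearman rho = -0.76, n = 8 exons, which share pools and neighbouring sequence). No such order was seen over the 18 gamma A and B exons (r = -0.18, rho = -0.35). The alpha exons were read in different parts. All CpGs of Pcdha2 lay at 36941515 to 36941654, near the end of its exon. Those of Pcdha12 lay at 37020361 to 37020400, near the start of its exon. Position along the cluster was therefore not separated from the part of the exon that was read.

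Over the CpGs read, beta exons were the most methylated family, but families were not read in the same parts. The first 500 b of the transcript held 37 of the 147 beta CpGs and 120 of the 220 alpha alternate CpGs. There the control means were 28.1% ± 2.36 for beta and 28.3% ± 3.40 for alpha alternate genes. The highest were Pcdhb14 (37447656 to 37456350, 8 CpGs) at 58.4% ± 4.54 in control and 64.7% ± 4.72 in arsenic pools, and Pcdhb17 (37484795 to 37489454, 37 CpGs) at 56.5% ± 2.92 and 60.9% ± 8.79. The lowest were Pcdhb1 (37264938 to 37267525, 26 CpGs) at 33.0% ± 2.28 and 34.1% ± 6.82, and Pcdhb16 at 32.7% ± 8.35 and 36.5% ± 4.69 on only 3 CpGs. In the gamma cluster Pcdhga7 had the highest mean over the CpGs that were read. Its exon (37714764 to 37717374, 10 CpGs) had 77.5, 78.0, 73.5, 75.0 and 88.2% in control and 66.6, 74.7, 78.7, 82.4 and 79.0% in arsenic pools. The next was Pcdhgb7 (37751600 to 37754193, 9 CpGs) at 48.2% ± 4.03 and 52.4% ± 10.5. The lowest pool of Pcdhga7 was above the highest pool of Pcdhgb7, at 65.7%. Exons were not all read in the same part, however. All CpGs of Pcdhga7 lay at 37716181 to 37716333, beyond the first 500 b of the transcript. Beyond 500 b Pcdhga1 had 73.2% and Pcdhga2 67.0% (mean of 10 pools), against 77.4% for Pcdhga7.

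Over the 41 exons the mean level had r = -0.58 and rho = -0.50 with GC content, and r = -0.41 and rho = -0.41 with the ratio of observed to expected CpGs. Within the 18 gamma A and B exons the values were r = -0.01 and rho = -0.02 for GC content, and r = -0.24 and rho = -0.09 for the CpG ratio. Within the 8 alpha alternate exons they were r = -0.21 and rho = 0.12 for GC content, and r = -0.57 and rho = -0.62 for the CpG ratio. Exons of a family share sequence, and all points come from the same pools.

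Methylation rose with distance from the transcript start in most of the isoforms that could be compared. In control pools the CpGs of the gamma alternate genes had 18.0% ± 1.43 in the first 500 b of the transcript, 31.0% ± 2.96 from 500 to 1000 b, 43.6% ± 1.36 from 1000 to 1500 b and 52.3% ± 3.14 from 1500 to 2000 b (SD, n = 5), the last on 19 CpGs, and 31.7% ± 2.91 on 3 CpGs beyond that. Beta genes rose from 28.1% ± 2.36 in the first 500 b to 56.6% ± 1.87 in the next bin and had 56.8% ± 0.964 and 50.6% ± 4.15 in the 2 after that. Alpha alternate genes had 28.3% ± 3.40 and 27.9% ± 3.61 in these 2 bins and 43.6% ± 3.14 at 2000 to 2500 b. Different genes fill different bins, so the same was asked within each gene.

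**Figure D2:**
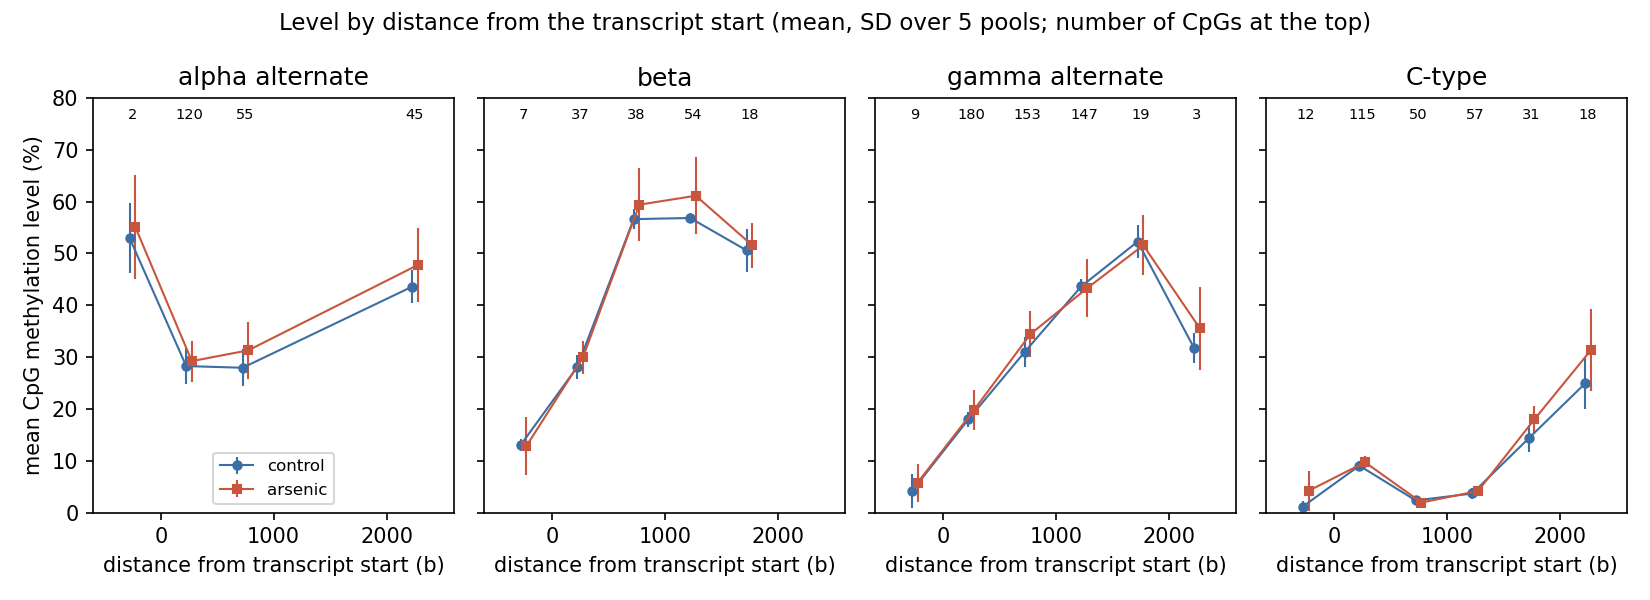
Mean level in percent (vertical axis) against distance from the transcript start in b (horizontal axis, bins of 500 b), for alpha alternate, beta, gamma alternate and C-type genes; points are means and bars SD over 5 pools of each group, and the number of CpGs in a bin stands at the top. Gamma alternate genes climb from 18.0% to 52.3% between the first and the fourth 500 b in control pools, and arsenic points follow the same course.

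Of 24 genes with at least 3 CpGs both within and beyond the first 500 b, 21 were more methylated beyond it, 18 of them in all 10 pools, with a median difference of 12.8 points. All 9 gamma A genes with data rose in all 10 pools, by 9.08 to 58.0 points. Pcdhga2 went from 8.93 to 67.0% (mean of 10 pools), Pcdhga1 from 19.5 to 73.2% and Pcdhb1 from 15.7 to 62.0%. The 3 exceptions were lower beyond 500 b in all 10 pools. They were Pcdhgc5, which went from 56.6 to 31.9%, Pcdha3, from 33.5 to 17.0%, and Pcdha8, from 46.7 to 31.1%. Pcdhgc5 thus departed from the other C-type isoforms in its level and in the course of methylation along its exon.

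Promoters were read at few genes. Pcdhgc3 had 0.968% ± 0.715 in control pools on 22 CpGs, and Pcdhac1 had 1.81% ± 0.282 on 23 CpGs, close to the median of 1.38% over all 9007 promoters. The windows of the 7 other promoters, all of alternate or beta isoforms, lay higher, from 12.1% ± 1.65 at Pcdhga11 (19 CpGs) and 12.7% ± 4.23 at Pcdhga4 to 41.7% ± 9.10 at Pcdha3 and 44.5% ± 7.58 at Pcdha5, the last 3 on only 3 or 4 CpGs. Of these 7, only Pcdha5, Pcdhb5 and Pcdhga11 had CpGs upstream of the transcript start, all within 500 b. In control pools these had 52.9% ± 6.79 on 2 CpGs, 13.1% ± 1.13 on 7 and 4.13% ± 3.33 on 9. Pcdhac1 and Pcdhgc3 had 12 upstream CpGs, at 1.17% ± 0.979. All other CpGs of these windows lay in the first 100 b of the transcript, which are part of the variable exon. Among all promoters, 88.2% were below 20%.

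Outside promoters and variable exons, 28 runs of at least 3 CpGs no more than 100 b apart were found in the interval, and 21 of them lay between 20 and 80%. There were 5 below 20%. They lay at 37172356 to 37172605, 37218235 to 37218390, 37655533 to 37655668, 37824533 to 37824616 and 37842432 to 37842894. At least 50% of the bases were repeat-masked in 12 of the 28 runs, and none of these 12 was below 20%.

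The same CpGs were then compared between control and arsenic pools. The mean level of the interval was 31.6, 32.2, 32.5, 32.6 and 32.6% in control pools 1 to 5 and 29.0, 32.6, 33.1, 36.1 and 39.4% in arsenic pools 1 to 5. Control pools lay close together, while arsenic 1 was below all of them and arsenic 4 and 5 were above all of them. The group means were 32.3% ± 0.422 and 34.1% ± 3.89, a difference of 1.74 points, which is less than the SD of the arsenic pools. Without arsenic 5 the difference was 0.415 points, and weighted by coverage it was 0.699. Over the whole table the difference was -0.588 points.

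**Figure D3:**
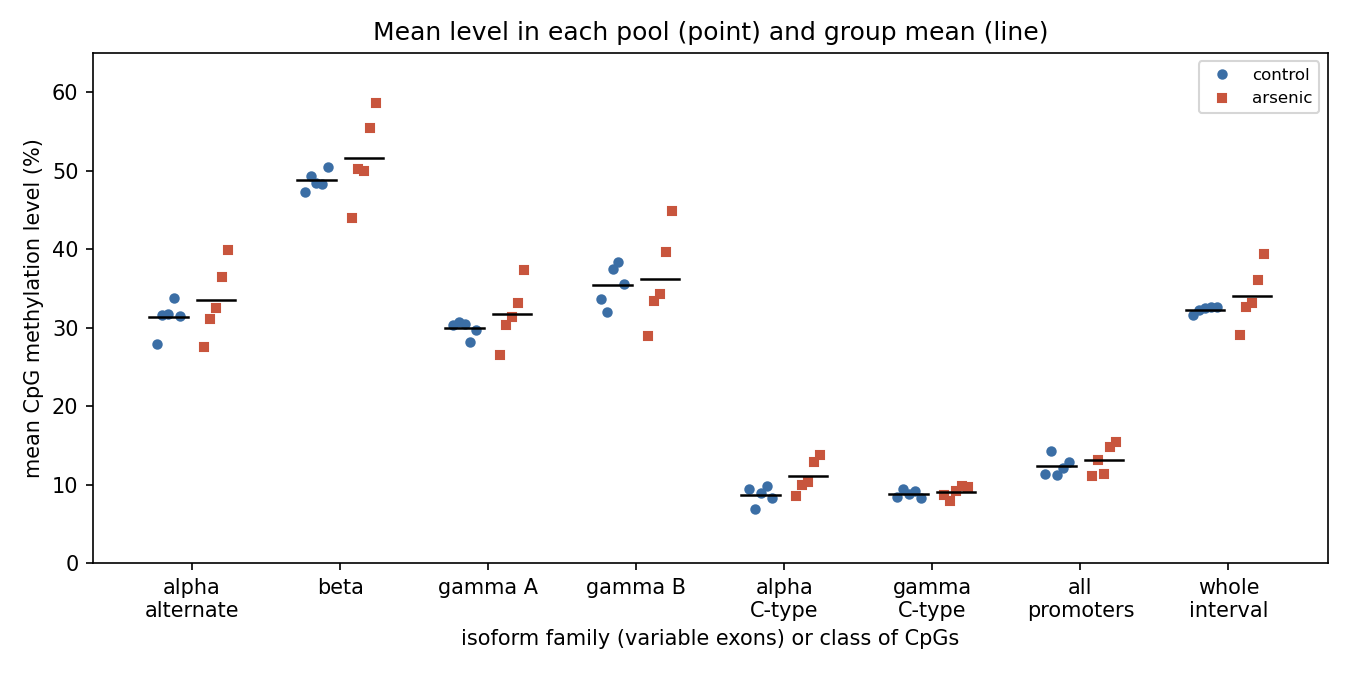
Mean level in percent (vertical axis) in each pool, by isoform family, for promoters and for the whole interval; circles are control pools, squares arsenic pools, and lines group means. Arsenic pools spread more widely than control pools in each family, with arsenic 5 highest in all but the gamma C-type exons, where it had 9.78% and arsenic 4 had 9.84%.

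In the families arsenic 4 and 5 were above every control pool, and arsenic 1 was below every control pool in all but the C-type exons. The difference between arsenic and control means was 2.88 points for beta, 2.42 for alpha C-type, 2.22 for alpha alternate, 1.84 for gamma A, 0.830 for gamma B and 0.236 for gamma C-type exons. The alpha C-type exons had 9.49, 6.96, 9.01, 9.82 and 8.25% in control and 8.60, 9.93, 10.4, 12.9 and 13.8% in arsenic pools. For these exons 4 of 5 arsenic pools were above every control pool, more than in any other family. Without arsenic 5 the differences were 1.15 points for beta, 1.76 for alpha C-type, 0.620 for alpha alternate, 0.441 for gamma A, -1.33 for gamma B and 0.0636 for gamma C-type exons. Weighted by coverage, the gamma A difference was 0.834 and the gamma C-type difference -0.374 points.

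No variable exon was called. Limma's test used log2 ratios of methylated to unmethylated reads, with Benjamini-Hochberg adjustment over all 6654 start-codon exons. At an adjusted p of 0.05, 0 of 41 passed (background 0%). Unadjusted p was under 0.05 for 0 of 41, against 5.26% of all exons and 1.81% of the 1103 exons between 20 and 80%. The groups overlapped at every protocadherin exon, and 0.691% of all exons had no overlap. The mean was higher in arsenic pools for 32 of the 41 exons, against 53.1% of all exons and 60.3% of the 1103 exons between 20 and 80%. Without arsenic 5 it was higher for 24 of 41, against 44.6% of those 1103, and without arsenic 1 for 37 of 41, against 71.4%. The count of directions thus moved with single pools.

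The exons with the smallest p after Pcdhac2 were Pcdha11, Pcdhb10, Pcdha1 and Pcdha3. Pcdha11 (37010752 to 37013251, 15 CpGs) had 23.5, 20.8, 31.3, 30.2 and 24.6% in control and 28.9, 31.5, 26.5, 31.7 and 47.5% in arsenic pools (limma, adjusted p = 0.943). Pcdhb10 (37411664 to 37414514, 12 CpGs) had 45.4, 55.6, 64.7, 47.4 and 54.0% in control and 57.5, 61.6, 57.4, 60.8 and 66.5% in arsenic pools (limma, adjusted p = 0.956), the largest difference among the 41 exons at 7.33 points. At Pcdha11 arsenic 5 stood far above the controls and arsenic 2 and 4 just above the highest of them, and at Pcdhb10 every arsenic pool lay above 4 of the 5 control pools. Pcdha3 rested on 26 CpGs, with 27.9% ± 3.88 in control and 32.8% ± 3.44 in arsenic pools (limma, adjusted p = 0.962). The largest drop among the 41 was at Pcdhgb6 (11 CpGs), named after its values were seen, from 33.9% ± 7.52 to 28.9% ± 8.18.

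Arsenic 5 had the highest level of the 10 pools at 28 of the 41 exons, and arsenic 1 the lowest at 13. Among the 1103 start-codon exons between 20 and 80%, arsenic 5 was highest at 41.6% and arsenic 1 lowest at 36.4%. The median deviation from the control mean over the protocadherin exons was -2.06 points in arsenic 1, 0.02 in arsenic 2, 1.23 in arsenic 3, 4.80 in arsenic 4 and 8.32 in arsenic 5. Over the 1103 exons it was -6.77, -0.15, 0.46, 3.94 and 8.70 points. The deviations of arsenic 4 and 5 were thus of similar size at other partly methylated exons, and that of arsenic 1 was smaller at the 41 exons. The sets are not matched on level. The median level was 34.1% over the 41 exons, of which 6 lay below 20%, and 58.5% over the 1103. What part of the protocadherin values follows arsenic 1, 4 and 5 was not tested.

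**Figure D4:**
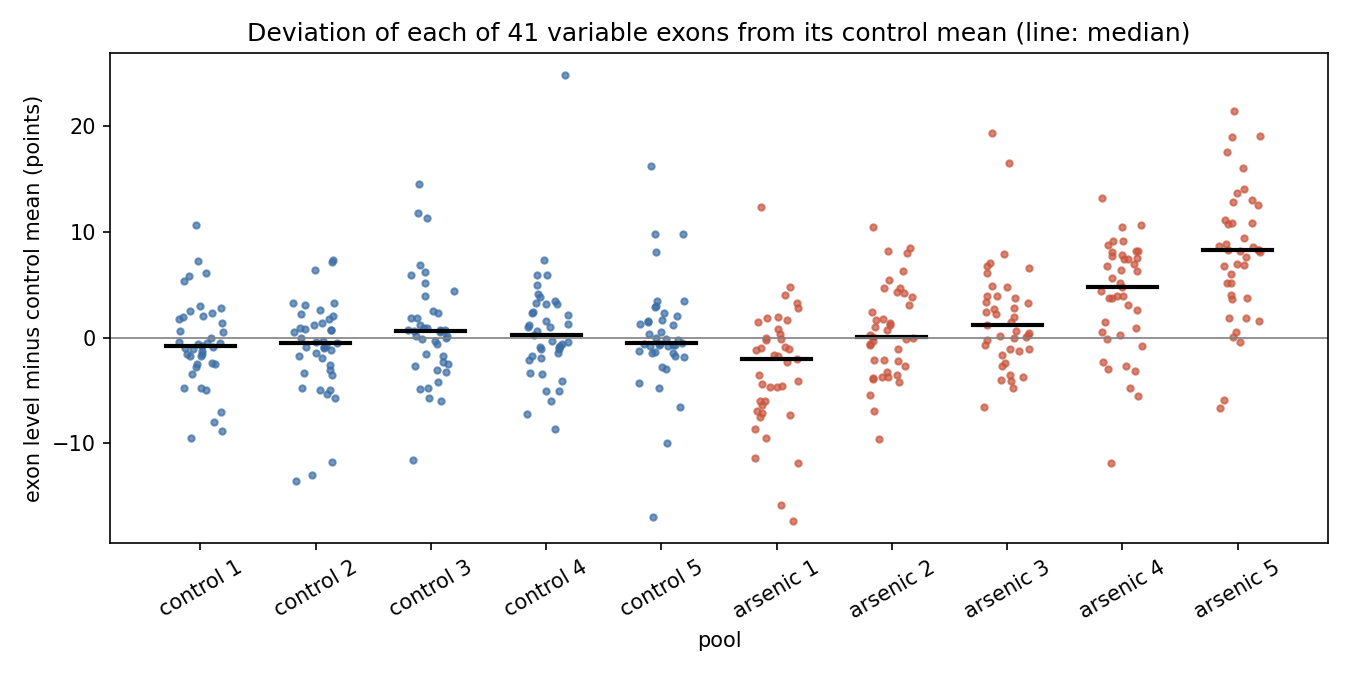
Level of each of the 41 variable exons minus the control mean of that exon, in percentage points (vertical axis), for each pool (horizontal axis); every point is an exon and lines are medians. The medians of the control pools lie between -0.76 and 0.65 points, and those of the arsenic pools between -2.06 and 8.32.

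No promoter was called either. With adjustment over 9007 promoters, 0 of 9 passed in limma (background 0%) and 0 of 9 had an unadjusted p under 0.05, against 5.22% of all promoters. Means were higher in arsenic pools at 5 and lower at 4, and 53.8% of all promoters were higher. The groups overlapped at each of the 9, and 0.988% of all promoters had no overlap. The smallest p belonged to Pcdhga8 (37724706 to 37725806, 5 CpGs), with 18.6, 45.8, 32.4, 20.1 and 31.9% in control and 55.9, 26.8, 25.8, 54.4 and 51.6% in arsenic pools (limma, adjusted p = 0.943). Here arsenic 1, 4 and 5 were above all controls and arsenic 2 and 3 were inside their range. All 5 CpGs lay downstream of the transcript start, so they are also part of the Pcdhga8 exon. Pcdhac1 had 2.09, 2.14, 1.56, 1.58 and 1.68% in control and 1.94, 2.48, 6.15, 6.96 and 2.45% in arsenic pools (limma, adjusted p = 0.943). Pcdhb5 had 16.9, 20.6, 19.2, 17.1 and 18.0% in control and 3.59, 15.8, 13.9, 17.6 and 22.9% in arsenic pools (limma, adjusted p = 0.943), with the low value in arsenic 1. Its difference of -3.60 points was -0.805 without arsenic 1 and -12.7 with only CpGs of coverage of at least 20. At Pcdha3 arsenic pools ran from 12.8 to 64.6%, beyond both ends of the control range, and at Pcdhgc3 from 0.477 to 1.78%, inside it.

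For single CpGs the criterion of the study was applied first, a q of at most 0.01 in logistic regression with at least 10 points between pooled reads. In the interval 33 CpGs met it, 13 of them lower in arsenic (hypoDMCs) and 20 higher (hyperDMCs). This was 2.26% of the members, against 2.27% of all CpGs (hypoDMCs 1.48%, hyperDMCs 0.784%). Within the interval hypoDMCs were 0.892% and hyperDMCs 1.37% of the CpGs. Among CpGs between 20 and 80%, 3.27% of those in the interval were DMCs (hypoDMCs 1.09%, hyperDMCs 2.18%). The table's share at these levels was 4.26% (hypoDMCs 2.66%, hyperDMCs 1.59%). This regression counts reads as independent and ignores the spread between pools. In limma, which uses that spread, 0 of 1458 CpGs passed (background 0%), and 66 had an unadjusted p under 0.05, which is 4.53% against 6% of the table. The groups did not overlap at 10 CpGs, or 0.686%, against 0.693% of the table. At 7 of them arsenic pools were higher (0.219% of the table) and at 3 lower (0.474%).

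Of the DMCs, 23 lay in variable exons outside promoters, 1 in a promoter and 9 between the genes' exons. Gamma A exons held 6 hypoDMCs and 6 hyperDMCs, alpha alternate exons 3 of each and gamma B exons 0. The DMCs without overlap of the groups that changed most were a drop in Pcdhga9 and rises in Pcdhb17 and between genes. The CpG at 37737358 (plus strand, Pcdhga9 exon, 13 to 33 reads) had 23.8, 30.8, 15.6, 28.6 and 23.1% in control and 4.76, 0, 3.85, 6.67 and 6.06% in arsenic pools. The CpG at 37486154 (minus strand, Pcdhb17 exon, 31 to 77 reads) had 33.3, 33.3, 40.0, 31.6 and 35.7% in control and 48.1, 53.5, 58.1, 57.9 and 43.1% in arsenic pools. At both, each arsenic pool lay on one side of all controls, including arsenic 1 and arsenic 5, and the limma adjusted p was 0.830. The CpG at 37116400 (plus strand, between Pcdhac1 and Pcdhac2, 38 to 92 reads) had 55.8% ± 8.93 in control and 77.6% ± 3.12 in arsenic pools (limma, adjusted p = 0.830). Since DMCs were chosen on these levels, their separation is a description.

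Runs of neighbouring CpGs gave the same count of calls. Out of all 139746 runs, 102 lay in the interval, and 0 passed in limma (background 0%). An unadjusted p under 0.05 was found for 6 of the 102, which is 5.88% against 7.09% of all runs. Means were higher in arsenic pools in 72 of 102, against 41.1% of all runs. That background is not matched on level, since only 3.36% of the interval's CpGs lay above 80%, against 24.7% of the table. How this count changes without single pools was not examined for runs. The smallest p belonged to the start of the Pcdhb2 exon (37294871 to 37294955, 4 CpGs), with 12.7, 6.82, 9.09, 15.4 and 10.3% in control and 16.9, 18.5, 20.5, 26.6 and 12.0% in arsenic pools (limma, adjusted p = 0.686). In the Pcdha5 exon (36960571 to 36960610, 10 CpGs) the mean was 26.0% ± 7.62 in control and 15.6% ± 3.86 in arsenic pools (limma, adjusted p = 0.686). Runs lower and higher in arsenic pools thus both occurred, and groups overlapped at all 102 runs, while 1.33% of all runs had no overlap.

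For comparison, the non-clustered protocadherins are genes of the same superfamily that lie outside these clusters. Of the 12 listed, 10 had a start-codon exon with at least 3 CpGs. Pcdh7, Pcdh8, Pcdh10, Pcdh17, Pcdh19 and Pcdh20 lay between 0.607 and 4.05% (mean of 10 pools), and Pcdh1, Pcdh9, Pcdh11x and Pcdh12 between 51.9 and 58.0%. Their 5 measured promoters were all at or below 1.93%. Among classical cadherins, the calcium-dependent adhesion proteins of epithelia and nerve cells, Cdh1, Cdh2 and Cdh3 had start-codon exons at 0.830 to 1.39%, and the Cdh1 promoter stood at 20.1%. No exon or promoter of these lists passed in limma (smallest adjusted p = 0.943), and 0 had an unadjusted p under 0.05.

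Factors known to act on the choice of protocadherin promoters were measured at their own promoters. Ctcf, which binds the isoform promoters, Rad21 of the cohesin ring, Wapl, which releases cohesin, the methyltransferase Dnmt3a and Smchd1, a repressor of the clusters, lay between 0.294 and 1.74% (mean of 10 pools), and Dnmt3b had fewer than 3 CpGs. The highest mean was that of Smchd1 and rested on arsenic 4, at 12.6% against 0 to 1.21% in the other pools. Of these 5 promoters 0 passed in limma and 0 had an unadjusted p under 0.05. Among the other coding genes of the interval, Taf7 and Slc25a2 had no CpG in promoter or start-codon exon, and Gm42416 is annotated on the first exon of Pcdha4.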

How the data were processed

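DNA methylation was measured by RRBS in 5 control and 5 arsenic pools of prospermatogonia. According to the submitters' processing notes and the methods, the authors trimmed reads with Trim Galore 0.6.5, mapped them to mm10 with Bismark 0.22.3 and united CpGs read at least 10 times in all 10 samples with methylKit 1.22.0, strands apart. They left out 1 further arsenic sample of lower depth, which is not analysed here. The treatment of PCR duplicates and overlapping mates is not given in the sources used here, and either would raise the apparent depth. The deposited table holds raw counts of methylated and unmethylated reads per CpG. Of 1349101 entries, the 1348062 of the autosomes and sex chromosomes entered, and 99.99% of them lay at a CpG of GRCm38. Genes came from GENCODE M21, where the upstream of 2 loci named Pcdha11 was called Pcdha10 after RefSeq. The variable exon is the exon with the start codon, and for beta genes it includes UTR.

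A level is methylated reads divided by coverage, in percent, and means are unweighted over CpGs. DMCs were called by logistic regression with numpy 2.4.6 and scipy 1.17.1. Promoters, exons, CpG runs and CpGs were fitted over the whole table with limma 3.58.1 (R 4.3.3) on log2((methylated + 1)/(unmethylated + 1)). Scripts were tested on simulated data. Named genes are the 2 highest and 2 lowest of each cluster and element with at least 3 CpGs, all C-type isoforms, the 5 smallest p of each element and, among DMCs without overlap, the 2 largest drops (1 was found) and rises. Members, lists and rules were chosen with earlier results of these data known. Whether dams are shared between pools is not given in the sources used here, and p-values measure the spread between these pools.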

Additional observations from a re-analysis of the deposited data

Results flagged for a closer look

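Among 132 groups of 5 pools (isoform families, classes, promoters and exons), 5 held a pool whose gap to its neighbour was large for the range of its group, and chance gives about 1 in 20. Control 2 had 45.6% at the Pcdha1 exon against 35.6 to 37.6% in the other control pools, 20.9% at the Pcdhgb6 exon against 34.6 to 40.1%, and 3.78% at the Pcdhgc3 exon against 1.09 to 1.46%. Control 3 had 52.6% at the Pcdhb3 exon against 42.7 to 44.7%, on 3 CpGs. Arsenic 5 had 47.5% at the Pcdha11 exon against 26.5 to 31.7%.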

How the results depend on the processing

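The count of 0 calls by limma for promoters, exons, CpG runs and CpGs remained 0 under every alternative run, which were a coverage of 20, merged strands, mean levels in place of log2 ratios, other CpG minimums, other promoter windows, other gaps and each pool left out. The 13 hypoDMCs and 20 hyperDMCs became 3 and 7 with a difference of at least 20 points, 0 and 0 with a test that allows for overdispersion, and 0 and 0 when every CpG was thinned to 10 reads. Leaving out 1 pool gave 9 to 20 hypoDMCs and 15 to 38 hyperDMCs, with 20 hypoDMCs without control 3 and 38 hyperDMCs without arsenic 1. Replicate numbers are shared by the groups, and the labels do not say whether they pair the pools. Deviations of same-numbered pools had correlations of -0.0133 to 0.0334, and 1 of 5 controls correlated best with its own number. With the replicate number as a block the counts were 10 hypoDMCs and 20 hyperDMCs, and 0 in each limma fit. With a coverage of at least 20, the gamma C-type difference moved from 0.236 to 0.967 points. The interval difference of 1.74 points ranged from 0.415 to 3.00 with 1 pool left out and was 0.699 weighted by coverage. The promoter difference of 0.758 points was -0.473 weighted by coverage. For single genes 686 of 688 values moved by less than the SD between pools. The other 2 came with a coverage of at least 20, where the Pcdhb5 promoter moved from -3.60 to -12.7 points and the Pcdha5 exon from -1.05 to 3.27. Depth limits single CpGs, since 3 methylated in 10 reads, the lowest coverage, allow 10.8 to 60.3%.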
